A study of Mus musculus with 12 samples.

Results

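The core circadian clock genes are the 10 genes Arntl (also called Bmal1), Clock, Npas2, Per1, Per2, Per3, Cry1, Cry2, Nr1d1 and Nr1d2. They were taken by name: every probe set on the array whose annotation gives one of these symbols and no other, 23 probe sets of 45037. Of these, 18 lay above the signal filter, a log2 signal of 3.056, and they covered 9 of the 10 genes, among 12309 genes tested in all. The probe set of highest mean signal leads where a gene has several. All values are log2 signals, so a difference of 1 means a doubling, and errors are standard errors of a log2 difference unless they are called SD.

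The lungs came from male C57BL/6 mice aged 8 to 12 weeks, kept under a light-dark cycle of 12 h each. The 4 groups of 3 animals each gave 1 array per lung: nmMLCK-/- mice after ventilator-induced lung injury (VILI), nmMLCK-/- mice breathing spontaneously (SB), wild-type mice after VILI and wild-type mice under SB. In nmMLCK-/- mice the gene Mylk no longer yields its long form of myosin light chain kinase, the one found outside muscle. VILI was 4 h of ventilation at 65 breaths per min with an end-expiratory pressure of 0 cm H2O. For the tidal volume the labels of the samples say 40 ml/kg, but the text on the series says 30 ml/kg. A group ventilated gently is not among the 4, and the labels give no hour of day for any animal. A difference in circadian time between the groups therefore cannot be told apart from ventilation, and neither can the rest of the ventilation procedure.

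The clock is a loop of transcription and feedback that runs in nearly every cell. ARNTL pairs with CLOCK, or with the closely related NPAS2, and the pair switches on genes with E-box sequences, among them the Per, Cry and Nr1d genes. PER and CRY proteins then shut the pair off, and the REV-ERB receptors made from Nr1d1 and Nr1d2 repress Arntl through ROR elements, so that Arntl RNA peaks at about the opposite time of day to Nr1d1 and Per3 RNA. In the lung the clock is known for gating inflammation, and club cells of the airway are a well-studied site of it.

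Pairs of arrays had correlations of 0.9806 to 0.9979 over the probe sets. The lung markers Sftpc (surfactant protein C), Sftpb, Scgb1a1, Ager, Cldn5, Pecam1 and Foxj1 were all measured, with a mean log2 signal over the 7 of 13.42 to 13.89 in every array. The targeted gene was read by 3 probe sets of Mylk, which were lower in nmMLCK-/- than in wild type by log2 differences of -0.97, -0.70 and -0.22 under SB and -0.74, -0.15 and -0.14 under VILI. None of these passed (limma adjusted p = 1 for each under SB, and 0.632, 0.902 and 0.583 under VILI), and the files do not say which isoform a probe set reads. A pair of SB arrays stood apart, nmMLCK-/- SB replicate 2 and wild-type SB replicate 3. Their 8 glucocorticoid-response genes had a mean log2 signal of 11.73 and 11.87, where the other 10 arrays lay between 13.22 and 13.64. Clock calls over both genotypes or within nmMLCK-/- that turn without the pair (those of Cry1, Cry2 and Per3) are given both ways.

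Ventilated lungs had more RNA of the activator Arntl and less of its repressors Per2, Per3, Cry1 and Nr1d2. The Cry1 call ended in 8 of 12 fits with a single array dropped. The repressors Per1, Cry2 and Nr1d1 did not pass (log2 differences of 0.57, -0.05 and 0.18 over both genotypes). Over both genotypes, 1 member rose and 4 fell out of 9 tested, where 36.7% of all genes passed (14.1% higher, 22.6% lower). The median size of the difference was 0.57 over the 9 members and 0.23 over all genes tested, and the signed medians were both -0.05. Signals of 2 members, Per3 and Nr1d2, did not overlap between the 6 VILI and the 6 SB arrays, which 17.9% of all genes showed. Within wild type 5 members did not overlap between VILI and SB (Arntl, Clock, Per2, Per3, Nr1d2; 36% of all genes), and 1 rose and 3 fell (15.4% of all genes passed). Within nmMLCK-/- 6 did not overlap (Arntl, Per1, Per2, Per3, Cry1, Nr1d2; 43.8% of all genes), and 1 rose and 2 fell (20.7% passed). In whole lung, a change in RNA per cell and a change in the number of cells that hold the RNA cannot be told apart.

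**Figure D1:**
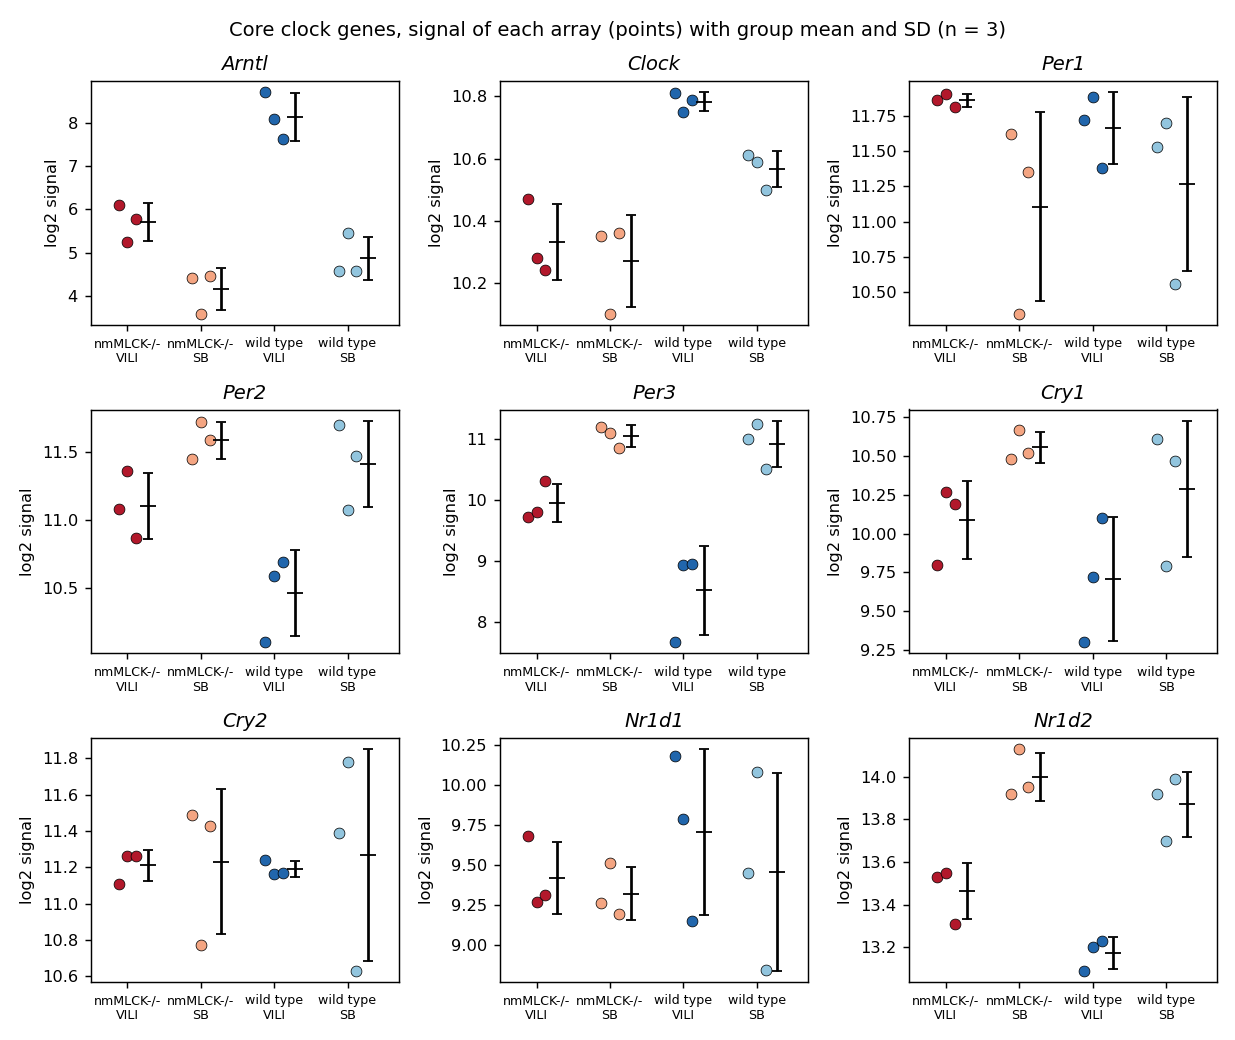
Log2 signal of the lead probe set of 9 core clock genes in each of 12 arrays (points, 3 per group), with group means and SD beside them; each panel has its own vertical axis, which does not start at 0. Arntl lies highest in wild-type VILI arrays (7.61 to 8.70), and Per3 and Nr1d2 lie lower in every VILI array than in every SB array.

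Arntl encodes the partner that every activator pair of the loop needs. Its log2 signals were 6.10, 5.24 and 5.77 in nmMLCK-/- VILI lungs, against 4.43, 3.60 and 4.46 in nmMLCK-/- SB lungs. In wild-type VILI lungs they were 8.70, 8.07 and 7.61, against 4.59, 5.45 and 4.58 in wild-type SB lungs. Within each genotype every VILI array was above every SB array, and all 3 wild-type VILI arrays were above all 3 nmMLCK-/- VILI arrays. Arntl rose by 2.40 ± 0.25 over both genotypes (5.27-fold, n = 6 arrays per condition, limma adjusted p = 0.000149). The rise was 3.26 ± 0.36 in wild type (9.55-fold, limma adjusted p = 0.000707) and 1.54 ± 0.36 in nmMLCK-/- (2.91-fold, limma adjusted p = 0.016), with 3 arrays per group. The nmMLCK-/- call was lost without nmMLCK-/- VILI replicate 1 (1.34, limma adjusted p = 0.0579) and without nmMLCK-/- SB replicate 2 (1.26, limma adjusted p = 0.0585). Among all genes, Arntl had the 19th largest difference in wild type and the 223rd in nmMLCK-/-. A further probe set of Arntl, 1457740_at, lay under the filter on average: it read 3.03, 1.90 and 1.89 in nmMLCK-/- VILI lungs, against 1.73 to 1.86 in nmMLCK-/- SB lungs. In wild-type VILI lungs it read 4.00, 4.02 and 2.40, against 1.72 to 1.88 in wild-type SB lungs. The 3 arrays at 3 or more on this probe set were the wild-type VILI replicates 1 and 2 and the nmMLCK-/- VILI replicate 1, the arrays of each group in which the lead probe set was highest.

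Clock encodes the usual partner of ARNTL and hardly cycles in most tissues. Its lead probe set read 10.47, 10.28 and 10.24 in nmMLCK-/- VILI lungs, against 10.35, 10.10 and 10.36 in nmMLCK-/- SB lungs. In wild type it read 10.81, 10.75 and 10.79 under VILI, against 10.61, 10.59 and 10.50 under SB. The groups overlapped in nmMLCK-/- and not in wild type, and the difference over both genotypes, 0.14 ± 0.07, did not pass (limma adjusted p = 0.13). Of the 4 probe sets of Clock, all above the filter, 1418660_at and 1439314_at rose, by 0.64 ± 0.16 and 0.54 ± 0.13 (limma adjusted p = 0.0129 and 0.0128 over all probe sets past the filter). The fourth, 1435775_at, was at 0.46 ± 0.20 (limma adjusted p = 0.103). The probe sets of Clock thus differ in whether they pass, and their mean stood at 0.44 (limma adjusted p = 0.0192).

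Npas2 encodes the stand-in for CLOCK and was the member not tested, since both its probe sets lay under the filter. The brighter of them read 2.78, 2.84 and 2.82 in nmMLCK-/- VILI lungs, against 2.77 to 2.80 in nmMLCK-/- SB lungs. In wild-type VILI lungs it read 3.61, 3.39 and 2.83, against 2.77 to 2.79 in wild-type SB lungs. Wild-type VILI replicates 1 and 2, the arrays with the most Arntl signal, were the only ones above 3; the other probe set stayed between 1.90 and 1.96 in all 12.

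The printed promoters show which letters of the known response elements occur near the start, for the members that passed over both genotypes and have a window in the RefSeq promoter table (build GRCm38.p6). Each runs 5′ to 3′ on its gene's strand, from 250 bases before the transcription start to 50 after it. Capitals mark matches, on either strand, to CACGTG (E-box), CACGTT (a weaker E-box variant), TTATGNAA (D-box, a motif known for DBP, TEF, HLF and NFIL3) or AGGTCA (core of the ROR element). None of the marked matches overlap.
Arntl, chr7:113207261-113207560, plus strand: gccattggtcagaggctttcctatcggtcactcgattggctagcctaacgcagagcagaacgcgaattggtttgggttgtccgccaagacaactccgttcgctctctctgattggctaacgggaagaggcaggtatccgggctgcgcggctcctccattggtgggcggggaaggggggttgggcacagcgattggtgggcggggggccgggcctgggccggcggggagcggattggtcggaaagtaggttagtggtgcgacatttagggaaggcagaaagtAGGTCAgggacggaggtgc
Per3, chr4:151044616-151044915, minus strand: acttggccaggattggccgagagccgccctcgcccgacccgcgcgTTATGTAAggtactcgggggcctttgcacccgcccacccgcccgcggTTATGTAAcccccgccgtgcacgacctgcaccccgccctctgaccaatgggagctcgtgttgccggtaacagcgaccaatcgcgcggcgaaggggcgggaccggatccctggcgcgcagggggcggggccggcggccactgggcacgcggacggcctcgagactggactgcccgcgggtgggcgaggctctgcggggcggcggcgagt
Cry1, chr10:85185005-85185304, minus strand: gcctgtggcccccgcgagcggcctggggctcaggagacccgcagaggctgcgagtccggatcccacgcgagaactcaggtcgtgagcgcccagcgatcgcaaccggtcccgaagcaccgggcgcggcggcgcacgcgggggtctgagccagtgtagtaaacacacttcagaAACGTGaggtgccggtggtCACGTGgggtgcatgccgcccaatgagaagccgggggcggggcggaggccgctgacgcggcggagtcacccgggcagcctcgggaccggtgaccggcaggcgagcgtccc
Nr1d2, chr14:18239057-18239356, minus strand: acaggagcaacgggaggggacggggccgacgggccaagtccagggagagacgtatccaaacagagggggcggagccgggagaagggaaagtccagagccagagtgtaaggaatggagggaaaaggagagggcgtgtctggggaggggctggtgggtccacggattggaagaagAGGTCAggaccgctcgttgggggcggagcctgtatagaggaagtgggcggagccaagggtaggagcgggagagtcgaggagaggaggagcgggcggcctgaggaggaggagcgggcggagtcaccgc
The printed Arntl window holds a match to the ROR element core that begins 32 bases past the start. It is not the only window of Arntl, and no other Arntl window holds a match to any of these motifs. This window lies inside the gene, whose first base is at 113178471. The Nr1d2 window holds a ROR core match 77 bases before the start. The Per3 window holds a pair of D-boxes, 205 and 158 bases before the start, and the Cry1 window an E-box at 60 and an E-box variant at 79 bases before it. Of 32851 promoter windows of the same length, 7.15% hold CACGTG, 4.68% CACGTT, 3.38% TTATGNAA and 16.3% AGGTCA. Over the 9 members with a window, 2 genes hold the E-box (Per1, Cry1), 3 its variant (Cry1, Cry2, Nr1d1), 2 the D-box (Per1, Per3) and 4 the ROR core (Arntl, Clock, Per1, Nr1d2). A member was counted if any of its windows matched, and the 9 members have 13 windows in all. The percentages are of single windows, so the counts and the percentages are unlike measures. These are matches of letters, not shown sites of binding.

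Per3 encodes a period protein that is a sensitive readout of clock phase. Its log2 signals were 9.73, 9.81 and 10.31 in nmMLCK-/- VILI lungs, against 11.20, 11.11 and 10.86 in nmMLCK-/- SB lungs. In wild type they were 7.67, 8.93 and 8.96 under VILI, against 11.01, 11.26 and 10.51 under SB. All 6 VILI arrays were below all 6 SB arrays, and the wild-type VILI arrays were the lowest of all. Per3 fell by 1.76 ± 0.23 on the log2 scale over both genotypes (3.38-fold lower, n = 6 per condition, limma adjusted p = 0.000456). The difference was -2.41 ± 0.33 in wild type (limma adjusted p = 0.0017) and -1.11 ± 0.33 in nmMLCK-/- (limma adjusted p = 0.0387). Leaving out single arrays ended the nmMLCK-/- call in 6 of 12 fits: limma adjusted p was 0.112, 0.114, 0.0849, 0.104, 0.0613 and 0.053 without nmMLCK-/- VILI replicates 1 and 2, nmMLCK-/- SB replicates 1, 2 and 3 and wild-type SB replicate 1, in that order. It was also lost without the SB pair low in glucocorticoid-response genes (-1.08, limma adjusted p = 0.0709) and with the mean of the probe sets (-0.85, limma adjusted p = 0.0928). All 4 Per3 probe sets above the filter fell over both genotypes, and the differences in wild type ran from -3.85 to -1.70. In nmMLCK-/- the 3 probe sets other than the lead were at -1.14, -0.63 and -0.50 and did not pass (limma adjusted p = 0.213, 0.152 and 0.194). These were adjusted over all probe sets past the filter, where the lead probe set was at limma adjusted p = 0.049.

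Per2, another period gene, also responds quickly to hormonal and inflammatory signals. It read 11.08, 11.36 and 10.87 in nmMLCK-/- VILI lungs, against 11.45, 11.72 and 11.59 in nmMLCK-/- SB lungs. The wild-type signals were 10.10, 10.59 and 10.69 under VILI, against 11.70, 11.07 and 11.47 under SB. VILI and SB arrays did not overlap within either genotype. Per2 fell by 0.72 ± 0.14 over both genotypes (limma adjusted p = 0.00362), and all 3 of its probe sets passed, at -0.72, -0.64 and -1.12. The difference was -0.95 ± 0.20 in wild type (limma adjusted p = 0.0122) and -0.48 ± 0.20 in nmMLCK-/-, which did not pass (limma adjusted p = 0.109). The wild-type call of Per2 ended with only the compared groups in the fit (limma adjusted p = 0.0628), and the nmMLCK-/- difference passed with the mean of its probe sets (-0.59, limma adjusted p = 0.0476).

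Per1 is the period gene with the best-known direct response to glucocorticoids. It read 11.86, 11.90 and 11.81 in nmMLCK-/- VILI lungs, against 11.62, 10.35 and 11.35 in nmMLCK-/- SB lungs. In wild type it read 11.72, 11.88 and 11.38 under VILI, against 11.53, 11.70 and 10.56 under SB. The lowest signals of all 12 arrays, 10.35 and 10.56, belong to the pair of SB arrays with low glucocorticoid-response genes. Per1 was higher in VILI by 0.57 ± 0.24 over both genotypes and did not pass (limma adjusted p = 0.0905); it was at 0.21 without that pair (limma adjusted p = 0.165) and passed at 0.70 without nmMLCK-/- SB replicate 1 (limma adjusted p = 0.0482). Per1 was therefore the period gene whose difference pointed up while Per2 and Per3 fell.

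Cry1 encodes the cryptochrome that holds the ARNTL pair in check late in the cycle. It read 9.80, 10.27 and 10.19 in nmMLCK-/- VILI lungs, against 10.48, 10.67 and 10.52 in nmMLCK-/- SB lungs. The wild-type signals were 9.30, 9.72 and 10.10 under VILI, against 10.61, 9.79 and 10.47 under SB. The wild-type groups overlapped, since wild-type SB replicate 2 lay among the VILI arrays. Cry1 fell by 0.53 ± 0.17 over both genotypes (limma adjusted p = 0.0349), a call that ended in 8 of 12 fits when single arrays were dropped, with values of -0.65 to -0.42 and a largest limma adjusted p of 0.0812 without nmMLCK-/- VILI replicate 1. The call over both genotypes also ended without the SB pair low in glucocorticoid-response genes (-0.45, limma adjusted p = 0.11) and with array medians set equal (-0.49, limma adjusted p = 0.0523). Cry1 did not pass in wild type (-0.58 ± 0.24, limma adjusted p = 0.132) unless wild-type SB replicate 2 was left out (-0.83, limma adjusted p = 0.0307), nor in nmMLCK-/- (-0.47 ± 0.24, limma adjusted p = 0.186).

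Cry2, the other cryptochrome, read 11.11, 11.26 and 11.26 in nmMLCK-/- VILI lungs, against 11.49, 10.77 and 11.43 in nmMLCK-/- SB lungs. In wild type it read 11.24, 11.16 and 11.17 under VILI, against 11.39, 11.78 and 10.63 under SB. The 6 VILI arrays lay between 11.11 and 11.26, inside the wider SB range, whose lowest values are again those of nmMLCK-/- SB replicate 2 and wild-type SB replicate 3. Over all arrays the difference was -0.05 ± 0.19 (limma adjusted p = 0.849, 95% confidence interval -0.46 to 0.36). Without that pair of arrays, a comparison added after the values were seen, Cry2 was lower in VILI at -0.32 (limma adjusted p = 0.018), and the 4 SB arrays left, 11.39 to 11.78, lay above every VILI array.

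**Figure D2:**
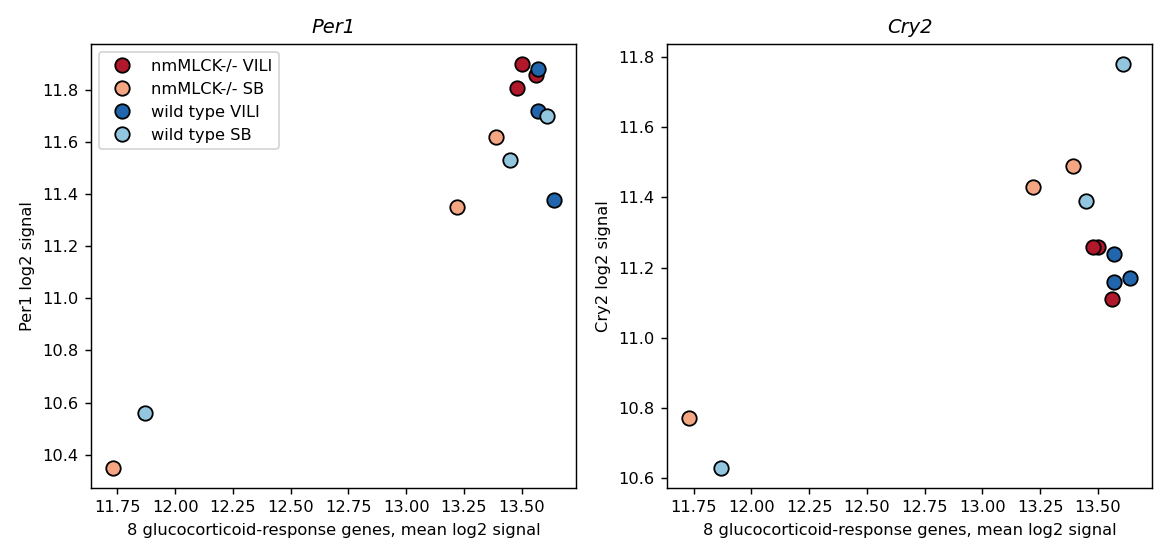
Log2 signal of Per1 (left) and Cry2 (right) in each of 12 arrays against the mean log2 signal of 8 glucocorticoid-response genes; axes do not start at 0. nmMLCK-/- SB replicate 2 and wild-type SB replicate 3 sit alone at 11.73 and 11.87 on the horizontal axis and lowest on the vertical axis of both panels.

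Nr1d2 encodes REV-ERB beta, a nuclear receptor that represses Arntl. It read 13.53, 13.55 and 13.31 in nmMLCK-/- VILI lungs, against 13.92, 14.13 and 13.95 in nmMLCK-/- SB lungs. The wild-type signals were 13.09, 13.20 and 13.23 under VILI, against 13.92, 13.70 and 13.99 under SB. As with Per3, every VILI array was below every SB array. Nr1d2 fell by 0.62 ± 0.08 over both genotypes (1.53-fold lower, limma adjusted p = 0.000317), by 0.69 ± 0.11 in wild type (limma adjusted p = 0.00317) and by 0.54 ± 0.11 in nmMLCK-/- (limma adjusted p = 0.00851). For the lead probe set these calls held in each of the 12 fits with an array dropped. Its dimmer probe set also fell over both genotypes (-1.94 ± 0.60, limma adjusted p = 0.0265), with signals from 4.03 to 9.45. Within a genotype that probe set did not pass, at -1.41 in wild type and -2.46 in nmMLCK-/- (limma adjusted p = 0.291 and 0.0611). With the mean of both probe sets the wild-type call of Nr1d2 ended (-1.05, limma adjusted p = 0.122).

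Nr1d1 encodes REV-ERB alpha, the other repressor of Arntl. It read 9.68, 9.27 and 9.31 in nmMLCK-/- VILI lungs, against 9.26, 9.51 and 9.19 in nmMLCK-/- SB lungs. In wild type it read 10.18, 9.79 and 9.15 under VILI, against 9.45, 10.08 and 8.84 under SB. The groups overlapped in both genotypes, and the difference of 0.18 ± 0.22 did not pass (limma adjusted p = 0.552, 95% confidence interval -0.31 to 0.67). Its sign turned in wild type without wild-type SB replicate 3 (-0.06, limma adjusted p = 0.922). The interval of Nr1d1 lies wholly above that of Nr1d2 (-0.78 to -0.45), although the proteins share a role; the difference between these genes was not itself tested.

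**Figure D3:**
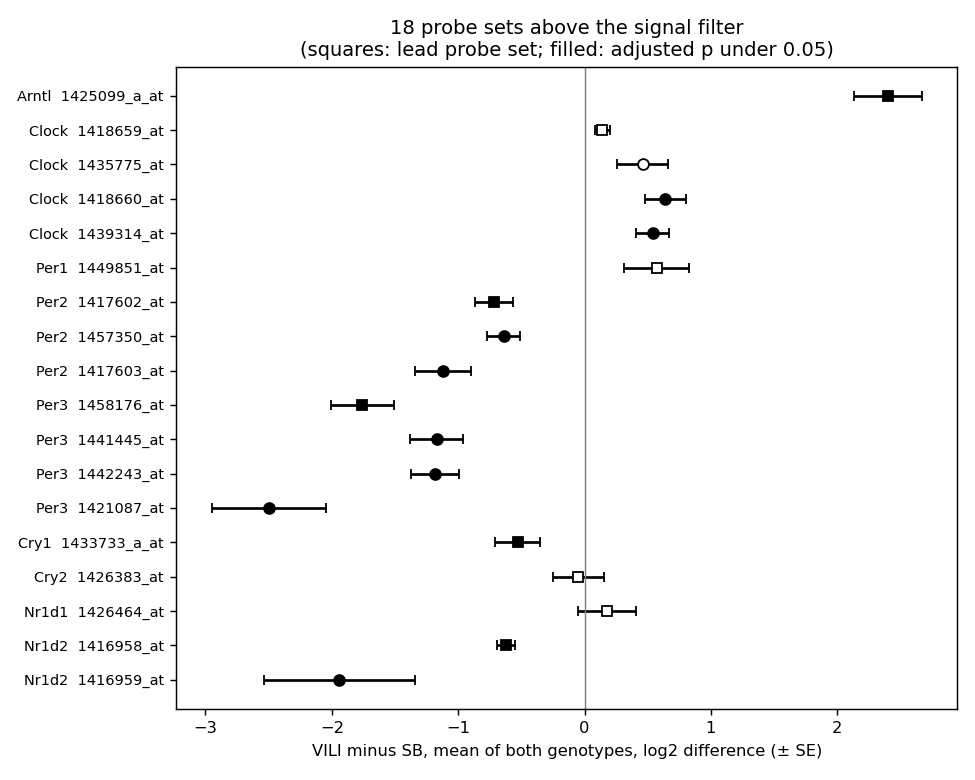
Difference between VILI and SB, mean of both genotypes, on the log2 scale (± SE) for the 18 probe sets of core clock genes above the filter, squares for lead probe sets and filled symbols for adjusted p under 0.05. Probe sets of Per2, Per3, Cry1 and Nr1d2 lie left of 0, and those of Cry2 and Nr1d1 straddle it. Those of Arntl, Clock and Per1 lie right of it, with 2 of the 4 Clock probe sets filled and Per1 not.

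Array by array, the activators and the repressors, each averaged over genes, stood on opposite sides of their means in wild-type VILI lungs. The mean deviation of Arntl and Clock from each gene's own mean over 12 arrays was 1.10 to 1.65 there, and that of the 7 repressors (Per, Cry and Nr1d genes) was -0.56 to -0.28. In wild-type SB lungs the activators stood at -0.56 to -0.08 and the repressors at -0.11 to 0.34. In nmMLCK-/- VILI lungs both lay near their means, at -0.34 to 0.18 for activators and -0.06 to 0.03 for repressors. In nmMLCK-/- SB lungs they were apart the other way, at -1.25 to -0.69 and 0.15 to 0.32. The activator mean minus the repressor mean was thus -0.07 ± 0.31 in nmMLCK-/- VILI and -1.12 ± 0.25 in nmMLCK-/- SB lungs, and 1.75 ± 0.40 in wild-type VILI and -0.57 ± 0.25 in wild-type SB lungs (SD, n = 3 arrays each). These scores are descriptions and carry no test, and Arntl makes up most of the activator side. The repressor side is uneven too. Between VILI and SB in wild type, Per3 had the largest repressor difference (-2.41) and Cry2 hardly moved (-0.08). Per1 (0.40) and Nr1d1 (0.25) pointed the same way as Arntl there and did not pass.

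**Figure D4:**
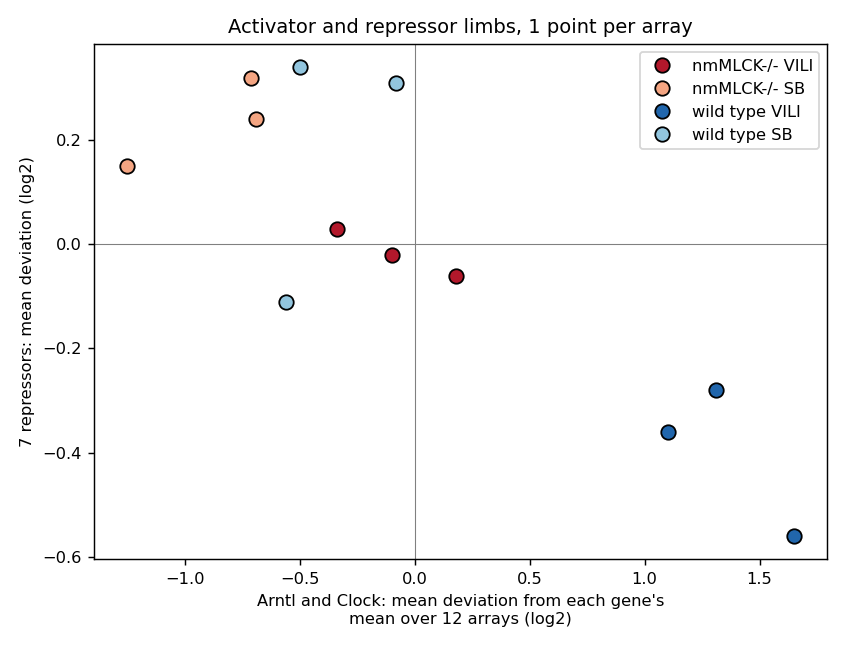
Mean log2 deviation of Arntl and Clock (horizontal) against that of the 7 repressors (vertical), each gene taken relative to its mean over 12 arrays, 1 point per array. Wild-type VILI arrays lie at the lower right (activators 1.10 to 1.65) and nmMLCK-/- VILI arrays near the centre (-0.34 to 0.18). SB arrays lie left of 0, at -1.25 to -0.69 in nmMLCK-/- and -0.56 to -0.08 in wild type. Wild-type SB and nmMLCK-/- VILI arrays thus overlap on the horizontal axis. Wild-type SB replicate 3 is the only SB array with repressors below 0.

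Within a condition, the relation of Arntl to each of the 8 other tested members was examined over the 6 SB and over the 6 VILI arrays, 16 relations in all. None passed after Benjamini-Hochberg adjustment of the exact two-sided permutation p of Pearson's r (7 of 16 were under 0.05 before it). Arntl did not overlap between the genotypes in either condition, and these permutations take no account of genotype. No coefficient is therefore given, and the 3 arrays of a genotype are too few for one.

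The second question is whether the genotypes differ. Under VILI, Arntl was lower in nmMLCK-/- (5.70 ± 0.44) than in wild type (8.13 ± 0.54; SD, n = 3 each), a difference of -2.42 ± 0.36 (5.36-fold lower, limma adjusted p = 0.0408). It was 1 of 13 genes called in that comparison, 0.106% of those tested (0.0569% lower), with the fourth largest difference of all. Dropping single arrays ended the call in 9 of 12 fits, at limma adjusted p of up to 0.219 without nmMLCK-/- VILI replicate 2, while the difference stayed between -2.68 and -2.14. The fits that kept it left out nmMLCK-/- SB replicate 2, wild-type SB replicate 2 or wild-type SB replicate 3. The call also ended with only the compared groups in the fit (limma adjusted p = 0.083). It ended as well when the adjustment was over all probe sets past the filter (limma adjusted p = 0.0572). No other member passed. By lead probe set, signals of 5 of 9 members did not overlap between the genotypes under VILI, against 20.5% of all genes. Of these, Arntl and Clock were lower in nmMLCK-/-, and Per2, Per3 and Nr1d2 were higher. The differences of the 4 beside Arntl were -0.45 ± 0.10 for Clock, 0.64 ± 0.20 for Per2, 1.43 ± 0.33 for Per3 and 0.29 ± 0.11 for Nr1d2 (limma adjusted p = 0.253, 0.412, 0.319 and 0.496). Further probe sets past the filter did not all follow. The dimmer one of Nr1d2 pointed the other way (-1.28 ± 0.84) and overlapped between the genotypes. Those numbered 1417603_at of Per2 (0.25) and 1418660_at of Clock (-0.10) overlapped too. The remaining ones of Clock, Per2 and Per3 did not overlap and pointed as the lead did.

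Under SB none of the 9 members passed between the genotypes (limma adjusted p = 1 for each; 0.0487% of all genes passed, 0.0325% as lower and 0.0162% as higher). Arntl was at 4.16 ± 0.49 in nmMLCK-/- and 4.87 ± 0.50 in wild type (SD, n = 3 each), a difference of -0.71 ± 0.36. Clock was at 10.27 ± 0.15 in nmMLCK-/- and 10.56 ± 0.06 in wild type. By lead probe set, these were the 2 members whose signals did not overlap between the genotypes under SB, against 6.6% of all genes. The further Clock probe sets past the filter, at -0.37, -0.41 and -0.03, all overlapped. Arntl levels were thus ordered, high to low, as wild-type VILI, nmMLCK-/- VILI, wild-type SB and nmMLCK-/- SB. The signals of nmMLCK-/- VILI and wild-type SB, neighbours in that order, overlapped (5.24 to 6.10 and 4.58 to 5.45).

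The test of whether the genotypes responded differently to VILI called no gene at all (0 of 12309 by limma; 619 genes, 5.03%, at an unadjusted p under 0.05). Here the response of Arntl in nmMLCK-/- minus that in wild type was -1.71 ± 0.51, with a 95% confidence interval of -2.84 to -0.58 and an unadjusted limma p of 0.00682 (limma adjusted p = 0.867). For Per3 it was 1.30 ± 0.47, with an interval of 0.26 to 2.33 (limma adjusted p = 0.947). Neither difference passed over all genes, and the comparisons share the same VILI and SB arrays. For Nr1d2 the difference of responses was 0.16 ± 0.15 (interval -0.18 to 0.49, limma adjusted p = 0.982).

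**Figure D5:**
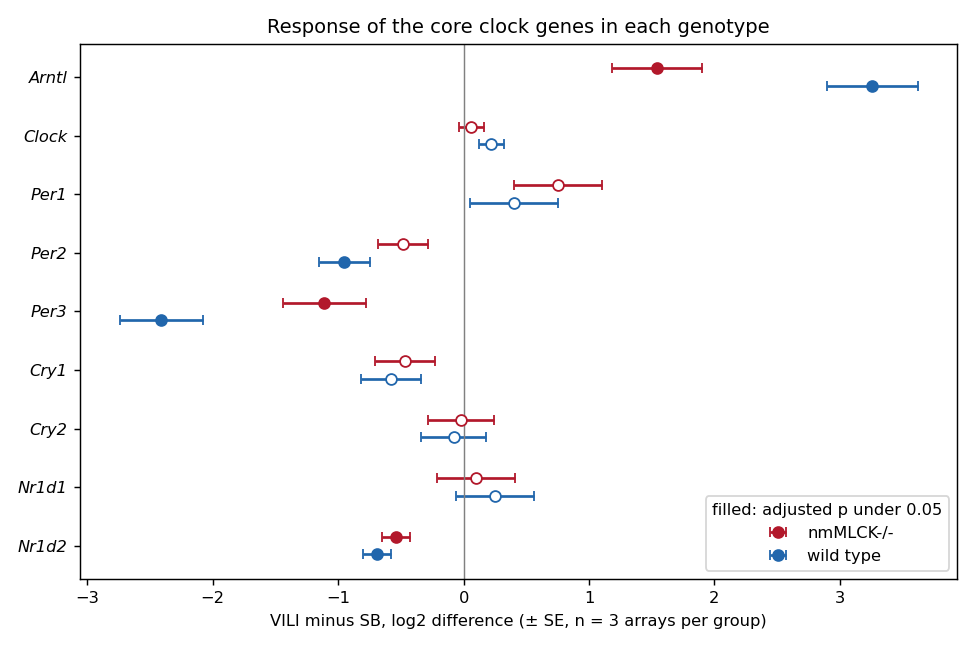
Difference between VILI and SB on the log2 scale (± SE, n = 3 arrays per group) for 9 core clock genes, nmMLCK-/- in red above wild type in blue, filled where adjusted p is under 0.05. Arntl, Per3 and Nr1d2 are filled in both genotypes, and Per2 is filled in wild type.

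Of the 20 listed clock outputs and modifiers, 15 were tested; 4 rose and 6 fell over both genotypes, beside the background of 14.1% and 22.6% given above. The 5 with the smallest p were Dbp, Nfil3, Btrc, Tef and Bhlhe40. Dbp, known as an activator at D-boxes, read 10.30, 10.46 and 10.57 in nmMLCK-/- VILI lungs, against 12.57, 13.25 and 12.48 in nmMLCK-/- SB lungs. The wild-type signals were 8.60, 9.29 and 9.40 under VILI, against 12.25, 11.92 and 12.97 under SB. Its groups did not overlap, like those of Per3. Nfil3, known as a repressor at D-boxes, rose by 4.07 ± 0.38 over both genotypes (limma adjusted p = 7.75e-05), with 7.49 to 8.36 in nmMLCK-/- VILI lungs against 2.57 to 4.69 in nmMLCK-/- SB lungs, and 8.44 to 9.77 in wild-type VILI lungs against 4.64 to 5.46 in wild-type SB lungs. Tef, the relative of Dbp, fell by 0.65 ± 0.11 (limma adjusted p = 0.00141). Btrc, which marks period proteins for breakdown, fell by 1.10 ± 0.17 (limma adjusted p = 0.00103), and Bhlhe40, which competes for E-boxes, rose by 0.75 ± 0.13 (limma adjusted p = 0.00197). In wild type 2 of the 15 rose and 5 fell, where 6.34% and 9.03% of all genes did; in nmMLCK-/- 2 rose and 2 fell, where 8.12% and 12.6% did.

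The genes whose signal followed that of Arntl most closely over the 12 arrays were 1700109H08Rik (Pearson r = 0.977), Sparc (0.951), Mapk8ip1 (0.948), Cers3 (0.945) and Htra1 (0.942). The most opposite were Cys1 (-0.977), Tspan4 (-0.959), Per2 (-0.959), Scrn3 (-0.958) and Pwwp3a (-0.955). All 10 passed between VILI and SB over both genotypes, so these coefficients share the split between the groups and carry no p. Among the members, Per2 was the 3rd, Nr1d2 the 12th and Per3 the 35th most opposite of all genes tested (r = -0.959, -0.94 and -0.92). Cry1 was the 164th (r = -0.869). The repressors Cry2 (0.0794), Nr1d1 (0.507) and Per1 (0.52) did not follow Arntl in reverse.

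Markers of other cell types were also counted over both genotypes, where 14.1% of all genes rose and 22.6% fell. Of the neutrophil markers 5 of 7 tested rose over both genotypes, and their mean log2 signal was 10.02 to 11.19 in nmMLCK-/- VILI, 7.25 to 7.89 in nmMLCK-/- SB, 9.52 to 10.47 in wild-type VILI and 8.05 to 10.18 in wild-type SB lungs. Wild-type SB replicate 3 held the 10.18, at the level of the VILI arrays. Of the T cell markers 2 of 3 tested rose, of the erythroid markers 0 of 2 changed by limma, and of the muscle markers 1 of 5 rose, Acta1 at 2.58. Of the glucocorticoid-response list 2 of 8 rose, Mt2 and Errfi1, and of the lung markers Cldn5 rose and Foxj1 fell out of 7. Genes named in this paragraph are list members named after their values were seen. The part of these cell types in the clock differences was not tested.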

How the data were processed

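Total RNA of 12 mouse lungs was hybridized to 1 array each, and 1 table of log2 signals per probe set was used. The values are log2 signals that the authors deposited already normalized between arrays; MAS5 and GCRMA are named per the submitters' processing notes, with no version or role. Array medians ran from 4.94 to 5.037, so these values cannot show a global gain or loss of RNA. A GCRMA-type summary compresses differences between dim probe sets. The number of arrays limits the precision. Background correction could not be varied, since raw intensities were not used here.

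Probe sets were named by the platform annotation, with symbols updated through RefSeq gene identifiers: 34945 of 45037 had 1 symbol, 932 several and 9160 none. Probe sets with a mean under the 40th percentile (3.056) were left out, and where a gene had several, the one of highest mean stood for it, which gave 12309 genes. The group differences come from limma 3.58.1, run in R 4.3.3 (lmFit and eBayes, 4 group means, 12 arrays). Benjamini-Hochberg adjustment was over all 12309 genes, with a threshold of 0.05, and every adjusted p comes from it unless named otherwise. For the Mylk probe sets and the probe sets of members other than the lead, adjusted p was instead taken over all probe sets past the filter. The same holds for the filled symbols of the probe set figure. The text names the 10 members, the 5 listed clock outputs and modifiers with the smallest p, and the 5 genes most like and most opposite to Arntl over the arrays; genes named outside this rule are marked. The lists (clock outputs and modifiers, glucocorticoid response, lung identity, neutrophil, erythroid, muscle, T cell) and the members were chosen with earlier results of these data known. Alternatives were the filter, the probe set rule, the scaling, the arrays in the fit, the prior, the replicate number as a block, and leaving out each array. The limma code and the permutation code were tested on simulated data. The correlation across genes of deviations from the group means was taken between arrays of different groups. Over 18 same-numbered pairs it ran from -0.628 to 0.398 (median -0.018). Over 36 pairs with different numbers it ran from -0.544 to 0.706 (median 0.028). With 3 arrays per group and some SB arrays that stood apart, this comparison cannot exclude a pairing. The main fit used no pairing.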

Additional observations from a re-analysis of the deposited data

How the results depend on the processing

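The 3 arrays per group limit the precision, and dim probe sets (those of Npas2, and 1457740_at of Arntl) carry no tested value. Arntl fell under a filter at the 60th percentile and was not tested there: members higher were then 0 over both genotypes, 0 in wild type and 0 in nmMLCK-/-, and under VILI 8 genes and 0 members lower passed between genotypes. With no filter 1 member was lower in nmMLCK-/-, 1 gene passed for the difference of responses, and 6 genes and 0 members lower passed between genotypes under VILI; limma adjusted p was 0.0632 for Cry1 over both genotypes and 0.124 for Arntl between genotypes under VILI. With the mean of each gene's probe sets, 2 members were higher over both genotypes, and Nr1d2 turned to -0.45 for the difference of responses, -0.05 between genotypes under SB and -0.49 under VILI. With array medians set equal Cry2 turned to 0.01 in nmMLCK-/-; genes higher and lower were then 926 and 839 in wild type (780 and 1112 as deposited) and 2036 and 2269 over both genotypes (1739 and 2781 as deposited). With only the compared groups in the fit, 845 genes passed in wild type, 0 between genotypes under SB, and 0 members lower under VILI. A further fit left out the SB pair low in glucocorticoid-response genes, a choice made after seeing the data. There 1 member was lower in nmMLCK-/-, and 11 genes passed for the difference of responses, 19 between genotypes under SB and 28 under VILI. Values turned to -0.06 for Nr1d1 in wild type and -0.03 for Clock in nmMLCK-/-. They also turned to 0.26 for Nr1d1 in the difference of responses and -0.11 for Per3 between genotypes under SB. The causes of these changes were not tested.

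With the replicate number as a block, 1 member was lower in nmMLCK-/- and 0 genes passed between genotypes under SB. Under VILI 2 genes and 0 members lower passed between genotypes (limma adjusted p = 0.16 for Arntl).

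When single arrays were dropped, genes called ranged from 3551 to 4659 over both genotypes, 933 to 2052 in wild type, 1232 to 3301 in nmMLCK-/-, 0 to 6 for the difference of responses, 0 to 16 between genotypes under SB and 2 to 19 under VILI. Members higher ranged from 1 to 2 over both genotypes and 0 to 1 in nmMLCK-/-; members lower ranged from 3 to 4 over both genotypes, 3 to 4 in wild type, 1 to 2 in nmMLCK-/- and 0 to 1 between genotypes under VILI. Values that changed sign were small. Cry2 ranged from -0.21 to 0.08 over both genotypes, -0.39 to 0.18 in wild type, -0.25 to 0.11 in nmMLCK-/-, -0.21 to 0.37 for the difference of responses, -0.35 to 0.22 between genotypes under SB and -0.01 to 0.07 under VILI. Nr1d1 ranged from -0.06 to 0.56 in wild type, -0.03 to 0.20 in nmMLCK-/-, -0.46 to 0.16 for the difference of responses and -0.45 to 0.17 between genotypes under SB. Clock ranged from -0.03 to 0.11 in nmMLCK-/-, Cry1 from -0.09 to 0.36 and Per1 from -0.03 to 0.70 for the difference of responses, and between genotypes under SB Per1 ranged from -0.51 to 0.23 and Per3 from -0.08 to 0.30.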

Other observations

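A dim probe set of Per3, 1460662_at, read 4.08 and 3.36 in wild-type SB replicates 1 and 2 and 1.92 to 2.01 in the other 10 arrays. Nothing was tested on it, since it lies under the filter.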
